A study of Mus musculus with 43 samples.

Results

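The genes described here are 10 genes by which a phagocyte takes up, breaks down, stores and exports lipid: Lpl, Cd36, Fabp4, Fabp1, Lipa, Nceh1, Plin2, Cidec, Abca1 and Abcg1. They were chosen by name, with earlier results of these data known. The Ensembl mouse gene identifiers of the count table gave 1 row for each of the 10 among 37991 genes in all. Their levels were compared over 8 groups of sorted lung cells from newborn mice and between hyperoxia and normoxia within litters.

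Macrophages of the lung live beside surfactant, a lipid-rich film that they help to clear. Lipoprotein lipase (Lpl) is a secreted enzyme that frees fatty acids from the triglyceride of lipoproteins. Cd36 is a scavenger receptor that binds oxidised lipoproteins and moves fatty acids, and the fatty acid binding proteins Fabp4 (adipocyte and macrophage type) and Fabp1 (liver type) carry fatty acids inside the cell. Lysosomal acid lipase (Lipa) cleaves cholesteryl esters and triglycerides in the lysosome, and Nceh1 is a neutral cholesteryl ester hydrolase of macrophages. Plin2 coats lipid droplets and Cidec promotes the growth of droplets by fusion. The transporters Abca1 and Abcg1 pass cholesterol out of the cell to lipid-poor apolipoprotein A-I and to high-density lipoprotein.

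RNA was measured by sequencing in mononuclear phagocytes sorted by flow cytometry from perfused, digested whole lungs of C57BL/6 newborns. Within 6 hours of birth the pups were assigned at random either to hyperoxia, a fraction of inspired oxygen of 0.9, or to normoxia (labelled ra), and both were kept for 1.5 days. The 4 sorted populations were alveolar macrophages (AM), gated as SiglecFhi CD11chi, monocytes/macrophages gated as Ly6Clo CD11chi (Ly6Clo), dendritic cells (DC), gated as MHCIIhi CD11chi, and monocytes/macrophages gated as Ly6Chi CD11clo (Ly6Chi). The 43 libraries comprised 5 hyperoxic libraries of each population, and 6 normoxic libraries of AM, DC and Ly6Chi and 5 of Ly6Clo. No genetic change or other agent is given for any group. The libraries came from litters 93, 100 and 108, and each litter gave libraries of both conditions in every population. Each hyperoxic group held a single library of litter 100. The study's design text says that litters were mixed before pups were assigned, and the litter number used here is the one on each label. The labels do not tie libraries to pups, so libraries of different populations may come from the same pups, and p-values measure the spread between libraries.

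Library totals ran from 551960 to 2403861 counts. Of the 5 libraries under 1000000 counts, 4 were AM, 3 of them hyperoxic. Marker sums are given as CPM, the counts scaled to a library of 1000000. The sum of 12 alveolar macrophage markers was 4447 to 6963 in AM libraries, 2484 to 3866 in Ly6Clo and 505 to 1025 in DC and Ly6Chi. The sum of 10 dendritic cell markers was 2113 to 3471 CPM in DC. The sum of 7 classical monocyte markers was 3635 to 5335 CPM in Ly6Chi and 1163 to 2547 CPM in Ly6Clo. The sorts held other markers too: 6 interstitial macrophage markers averaged 1594 CPM in normoxic DC and 1591 CPM in normoxic Ly6Clo. In Ly6Chi 8 neutrophil markers summed to 1493 to 2862 CPM, and in DC 4 B cell markers to 270 to 806 CPM. Transcripts of lung epithelium, 12 markers with a summed level of 263 to 3229 CPM, were present in every library. In bulk samples of this kind, fewer cells of a type and less RNA per cell cannot be told apart. Counts of very abundant transcripts in this table look limited, since no gene exceeded 1.73 counts per exonic base in any library, and Plin2 was the highest of the 10 genes, at 0.758 in that unit. Per base of its principal transcript Plin2 reached 1.41, and whether its differences are compressed was not settled.

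The normoxic libraries were compared first, to order the populations. A gene was called when its adjusted p was under 0.05 (edgeR quasi-likelihood F test with litter as a block, Benjamini-Hochberg adjustment over 11979 genes). All 10 genes were called higher in AM than in Ly6Chi, where 52.2% of all genes were called and 24.0% were called higher, and the median log2 fold change of the 10 was 2.83 against a median of −0.05 over all genes. In AM against DC, 9 of the 10 were called, all higher, where 49.9% of all genes were called and 22.4% were called higher (median of the 10, 2.56), and the exception was Abca1. Ly6Clo was called higher than Ly6Chi in 9 of the 10 genes, all but Fabp1, where 30.7% of all 11979 genes were called and 1798 were called higher. DC were called lower than Ly6Clo in 8 genes, all but Cd36 and Fabp1, where 24.4% of all genes were called and 12.7% were called lower. Between AM and Ly6Clo, where 21.5% of all genes were called, 3 genes were higher in AM (Lpl, Fabp1 and Abcg1; 7.28% of all genes) and Abca1 was lower (14.2%). In DC against Ly6Chi, where 28.7% of all genes were called, Lpl, Cd36 and Abca1 were higher in DC (14.2%) and Plin2 was lower (14.4%).

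**Figure D1:**
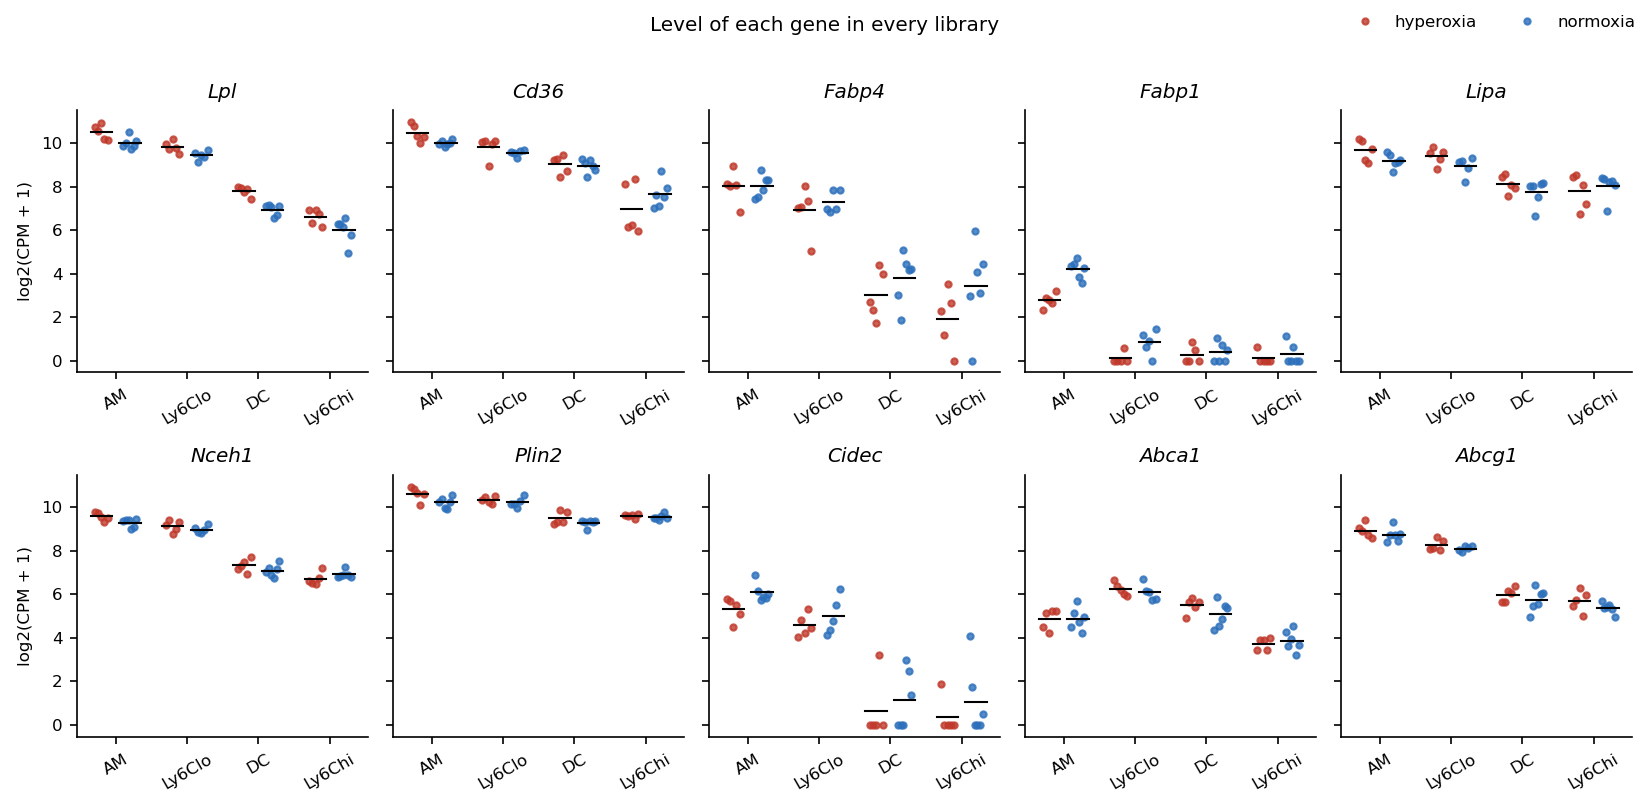
Level of each of the 10 genes in every library, as log2(CPM + 1), with hyperoxia left of normoxia in each population; points are libraries and black bars are group means of the plotted values. Most genes are highest in AM and Ly6Clo, Fabp1 is near 0 outside AM, and Abca1 is highest in Ly6Clo.

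Expressed per length, as CPM per kilobase of the principal transcript, the order of mean levels in normoxic AM was Plin2 (646), Fabp4 (305), Cd36 (304), Lpl (254), Lipa (200), Nceh1 (142), Abcg1 (74.6), Cidec (40.7), Fabp1 (32.5) and Abca1 (2.94). Plin2 was thus the most abundant of the 10 per length, and Abca1 was the least.

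Lpl had the same order of means in both oxygen conditions: AM, then Ly6Clo, DC and Ly6Chi. In normoxia AM held 1047 ± 213 CPM (mean ± SD, n = 6), Ly6Clo 698 ± 102 (n = 5), DC 124 ± 20.7 (n = 6) and Ly6Chi 66.5 ± 21.7 CPM (n = 6), and the same n holds for the genes that follow. Every step of that order was called. AM exceeded Ly6Clo by 0.60 ± 0.18 (log2 fold change ± SE, adjusted p = 0.0207), a call that ended without Ly6Clo normoxia replicate 2 (adjusted p = 0.0609). DC differed from Ly6Clo by −2.45 ± 0.19 (adjusted p = 6.71e-10) and exceeded Ly6Chi by 0.88 ± 0.19 (adjusted p = 0.000831).

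Cd36 spanned a narrower range than Lpl over the populations. Normoxic AM held 1032 ± 92.9 CPM, Ly6Clo 755 ± 75.3, DC 502 ± 102 and Ly6Chi 218 ± 109 CPM. Neither AM against Ly6Clo (0.45 ± 0.23, adjusted p = 0.158) nor DC against Ly6Clo (−0.56 ± 0.22, adjusted p = 0.0731) was called, whereas DC exceeded Ly6Chi by 1.18 ± 0.22 (adjusted p = 0.000240). AM against Ly6Clo was called without a filter on low counts (adjusted p = 0.00175). DC against Ly6Clo was called by DESeq2 (0.0447), without the filter (1.82e-05) and without DC normoxia replicate 1 (0.0438).

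The 2 fatty acid binding proteins had unlike patterns. Fabp4 was at 273 ± 97.7 CPM in normoxic AM, against 163 ± 59.4 CPM in Ly6Clo, a difference that did not pass (0.67 ± 0.40, adjusted p = 0.240). That difference was called without a filter on low counts (adjusted p = 0.00189). DC held 16.2 ± 10.6 and Ly6Chi 18.8 ± 22.4 CPM of Fabp4. Fabp1 was found at 10.96 to 25.4 CPM in normoxic AM libraries and at no more than 1.75 CPM in any library of another population. Its summed count was 132 over the 6 normoxic AM libraries, against 6 over the 5 of Ly6Clo, 4 over the 6 of DC and 4 over the 6 of Ly6Chi. A library of the other normoxic groups at 0 still allows 1.26 to 2.51 CPM (3 counts).

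The ester hydrolases were highest in AM and Ly6Clo. Normoxic AM held 635 ± 83.7 CPM of Nceh1, Ly6Clo 508 ± 56.6, DC 138 ± 26.0 and Ly6Chi 121 ± 16.8 CPM. Of the 3 steps in that order, the one between DC and Ly6Clo was called (−1.87 ± 0.13, adjusted p = 9.07e-11). The step between AM and Ly6Clo (0.31 ± 0.13, adjusted p = 0.0854) was called by DESeq2 (0.0270), with RLE scaling (0.0429) and without AM normoxia replicate 4 (0.0489) or 5 (0.0356). AM held 595 ± 129 CPM of Lipa, Ly6Clo 505 ± 130, DC 230 ± 74.1 and Ly6Chi 275 ± 81.6 CPM. Neither AM and Ly6Clo nor DC and Ly6Chi were called apart in Lipa (adjusted p = 0.433 and 0.206). Without Ly6Chi normoxia replicate 3, at 115 CPM, DC were called lower than Ly6Chi (−0.43, adjusted p = 0.0453).

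Of the droplet genes, Plin2 was at like levels in AM and Ly6Clo. Normoxic AM held 1219 ± 208 CPM, Ly6Clo 1213 ± 195, DC 625.5 ± 64.9 and Ly6Chi 759 ± 66.2 CPM. DC were lower than Ly6Chi by a log2 fold change of −0.31 ± 0.10 (adjusted p = 0.0182). That call ended with the litter term dropped (adjusted p = 0.0594), without DC normoxia replicate 3 (0.0528) and without Ly6Chi normoxia replicate 4 (0.0554). Cidec, at 69.9 ± 24.3 CPM in AM and 36.2 ± 23.8 CPM in Ly6Clo, was low elsewhere. It was found in 3 of 6 normoxic libraries each of DC and Ly6Chi, at up to 6.94 and 15.8 CPM. AM exceeded Ly6Chi by 4.35 ± 0.80 (adjusted p = 0.000125), a value of 6.71 without Ly6Chi normoxia replicate 1, which held the 15.8 CPM. Ly6Clo exceeded Ly6Chi by 3.45 ± 0.85 (adjusted p = 0.00368), or 5.69 without the same library.

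The exporters had unlike orders. For Abcg1, normoxic AM held 435 ± 109 CPM, Ly6Clo 276 ± 23.1, DC 55.8 ± 19.6 and Ly6Chi 41.4 ± 7.19 CPM, and AM exceeded Ly6Clo by 0.64 ± 0.17 (adjusted p = 0.00953). For Abca1, AM held 30.2 ± 11.7 CPM, Ly6Clo 69.9 ± 20.4, DC 35.1 ± 14.4 and Ly6Chi 14.4 ± 5.13 CPM, so Ly6Clo was highest. AM were lower than Ly6Clo in Abca1 by −1.21 ± 0.30 (adjusted p = 0.00490). DC were lower than Ly6Clo by −0.90 ± 0.29 (adjusted p = 0.0252), a call that ended without any 1 of DC normoxia replicates 1, 3 and 4 or Ly6Clo normoxia replicate 1 (adjusted p of 0.0604 to 0.0847).

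Hyperoxia was compared with normoxia within each population, with litter as a block. None of the 10 genes was called in AM, where 0.11% of all 9986 genes were called. None of the 8 tested genes in DC, none of 8 in Ly6Chi and none of 9 in Ly6Clo was called, where the share of all genes called was 0.0% in each. Fabp1 was too low to be tested in those 3 populations, and Cidec was too low in DC and Ly6Chi. At an unadjusted p under 0.05 there were 6 genes of 10 in AM (9.91% of all genes), 1 of 8 in DC (8.85%), 1 of 8 in Ly6Chi (5.45%) and 2 of 9 in Ly6Clo (5.3%). Since the 10 genes were chosen with earlier results of these data known, these counts beside those shares are not a test of the set. DESeq2 called Lpl and Cidec in AM, among 111 of all 9986 genes, and Lpl in DC, among 24 of all 11274 genes, and no member in the other populations. The median log2 fold change of the tested genes was 0.24 in AM, 0.25 in DC, −0.16 in Ly6Chi and 0.16 in Ly6Clo, where the median over all genes was −0.010 in AM, 0.00093 in DC and −0.015 in both others. The interaction of oxygen with population, tested over all 43 libraries, called 0 of the 10 genes, and 0 of 12529 genes in all (0.0%). At an unadjusted p under 0.05 that test held 0 of the 10 and 617 of all genes, and DESeq2 also called 0 of the 10.

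**Figure D2:**
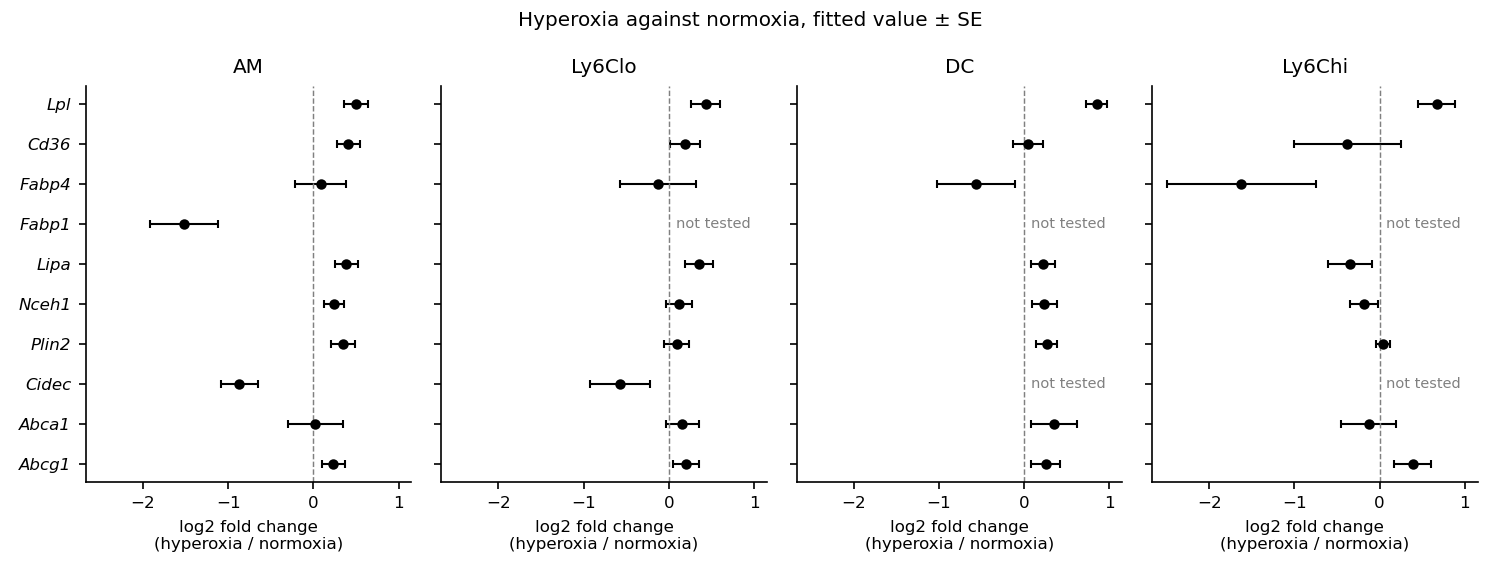
Fitted log2 fold change of hyperoxia over normoxia for each gene and population; points are the fitted values and bars are SE. Lpl lies right of 0 in all 4 panels, from 0.43 in Ly6Clo to 0.85 in DC, while Cidec and Fabp1 lie left of 0 in AM, and no value passed the adjusted threshold.

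Lpl had a positive fitted value in every population, as did 14.3% of the 9249 genes tested in all 4. In DC the hyperoxic libraries were at 254, 241, 217, 236 and 170 CPM, against a lowest, median and highest of 92.8, 135 and 141 CPM in normoxia. Every hyperoxic DC library was above every normoxic one, as for 0.142% of all genes in DC. The log2 fold change was 0.85 ± 0.13 with an adjusted p of 0.0624, the smallest p of the 11274 genes tested in DC. The alternatives gave 0.78 to 0.92, with adjusted p from 3.33e-08 to 0.433. Without DC hyperoxia replicate 4 Lpl passed the threshold (adjusted p = 0.0216), and DESeq2 called it as well (1.66e-05).

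In AM the hyperoxic libraries held Lpl at 1695, 1486, 1932, 1176 and 1145 CPM, against 859, 982 and 1452 CPM as the lowest, median and highest in normoxia. Of the 5 hyperoxic libraries, 3 lay above the normoxic range and the others lay inside it. Its log2 fold change was 0.50 ± 0.14 (adjusted p = 0.228), and it was 0.20 without the libraries under 1000000 counts, which leaves 2 hyperoxic libraries. Both are of litter 108, so with litter as a block that value is the difference within litter 108 and does not separate depth from litter. In DESeq2 the adjusted p was 0.0417 (range over alternatives 0.00516 to 0.968). Summed alveolar macrophage markers were 4468 to 6963 CPM in hyperoxic AM and 4447 to 5510 CPM in normoxic AM, and their part in this value was not tested.

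In Ly6Chi the hyperoxic libraries were at 120, 77.9, 120, 107 and 70.2 CPM, against 30.2, 72.8 and 92.8 CPM in normoxia, and 3 of 5 lay above the normoxic range (log2 fold change 0.67 ± 0.22, adjusted p = 0.758). In Ly6Clo they were at 1004, 842, 1169, 869 and 723 CPM, against 745, 559, 697, 653 and 834 CPM in normoxia, and 4 of 5 lay above that range (0.43 ± 0.17, adjusted p = 0.860). Fitted values ran from 0.45 to 0.87 over the alternatives in Ly6Chi and from 0.27 to 0.64 in Ly6Clo. Lpl was 1 of 12 genes, of 9249 tested in all 4 populations (0.13%), that were higher at an unadjusted p under 0.05 in every population.

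By litter, the mean log2 CPM of Lpl was higher in hyperoxia in 3 of 3 litters in AM, DC and Ly6Chi (as for 16.3%, 15.2% and 13.5% of all genes) and in 2 of 3 in Ly6Clo, where the difference in litter 108 was −0.07. Within DC the litter differences were alike, at 0.83, 0.96 and 0.76 in litters 93, 100 and 108. In AM they were 0.69, 0.79 and 0.21. The alveolar macrophage markers summed to 690 to 1025 CPM in hyperoxic DC and 614 to 993 CPM in normoxic DC. The 10 dendritic cell markers summed to 2113 to 3161 CPM in hyperoxic DC and 2531 to 3471 CPM in normoxic DC, and 6 interstitial macrophage markers to 1587 to 2313 CPM in hyperoxic DC and 1317 to 1899 CPM in normoxic DC. No marker of these 3 lists was at 0 in all libraries of either group. The part of these lists in the difference in Lpl was not tested.

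**Figure D3:**
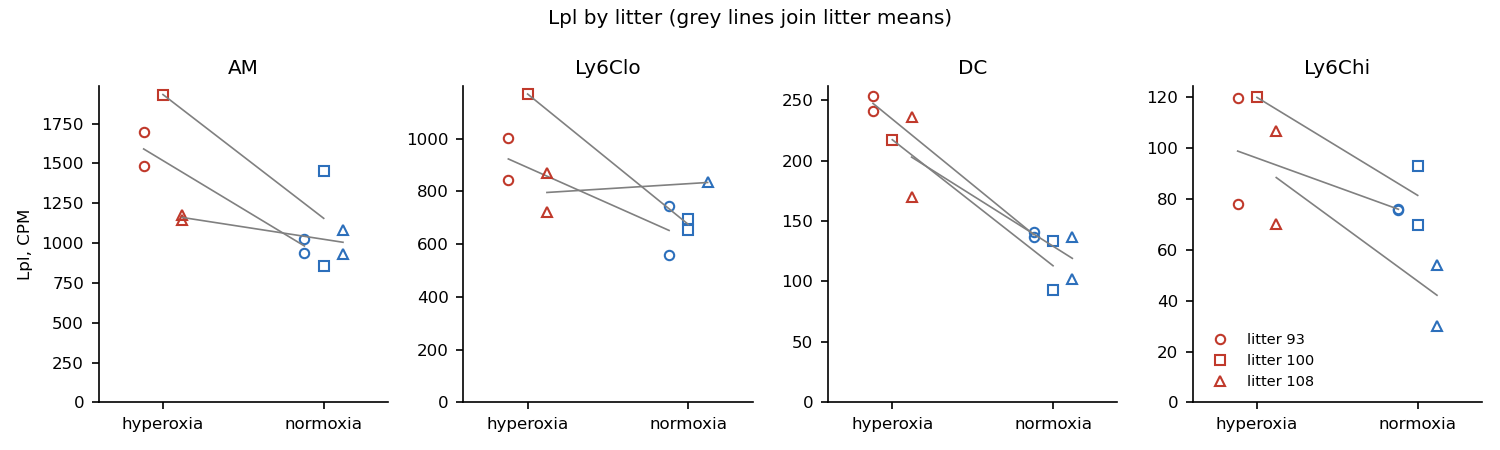
Lpl level (CPM) in every library by population and litter, with hyperoxia left of normoxia; symbols mark the litters and grey lines join the litter means of the 2 conditions. The DC groups do not overlap, and the line of litter 108 is nearly level in Ly6Clo.

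Cd36 in AM differed by litter. Hyperoxic libraries were at 1993 and 1758 CPM in litter 93, 1266 CPM in litter 100, and 1018 and 1254 CPM in litter 108, against 918, 1007 and 1175 CPM as the lowest, median and highest in normoxia. Of these 5, 4 lay above the normoxic range, and the litter differences in mean log2 CPM were 0.84 in litter 93, 0.42 in litter 100 and 0.05 in litter 108. The fitted log2 fold change was 0.41 ± 0.14 (adjusted p = 0.310), and it was 0.17 without litter 93. Without the libraries under 1000000 counts, where litter 108 alone held both conditions, it was 0.037. In Ly6Clo, Cd36 was at 1061, 1080, 497, 987 and 1101 CPM in hyperoxia, against 634 to 833 CPM in normoxia. There 4 hyperoxic libraries lay above the normoxic range and that of litter 100 lay below it (0.19 ± 0.17, adjusted p = 0.880). DC spanned 348 to 696 CPM in hyperoxia and 346 to 607 CPM in normoxia (0.05 ± 0.18).

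In Ly6Chi, Cd36 was at 280, 69.1, 75.3, 323 and 60.7 CPM in hyperoxia, against 127, 189 and 425 CPM as the lowest, median and highest in normoxia (−0.38 ± 0.63, adjusted p = 0.898). Of the 5 hyperoxic libraries, 3 lay below the normoxic range and the others lay inside it, and the litter differences were −0.17, −1.67 and −0.58 in litters 93, 100 and 108. Fabp4, which endothelium also expresses, was at 0 to 10.6 CPM in hyperoxic Ly6Chi and 0 to 62.1 CPM in normoxic Ly6Chi (−1.62 ± 0.88, adjusted p = 0.758). The sum of 11 endothelial markers averaged 338 CPM in hyperoxic Ly6Chi (17.6 to 648) and 702 CPM in normoxic Ly6Chi (360 to 1027). Its mean was lower in hyperoxia in the other populations too. It was 430 against 669 CPM in AM, 247 against 305 CPM in Ly6Clo and 165 against 274 CPM in DC. In hyperoxic Ly6Chi replicates 1 to 5 the endothelial sum was 314, 17.6, 505, 648 and 204 CPM. The Cd36 values above are listed by the same replicates, and their ranking differs from that of the sum. The part of endothelial RNA in these values was not tested.

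Fabp4 showed no shared direction elsewhere. The fitted values were 0.08 ± 0.30 in AM, −0.57 ± 0.46 in DC and −0.13 ± 0.45 in Ly6Clo. In AM the hyperoxic libraries spanned 113 to 488 CPM, against 170 to 427 CPM in normoxia.

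Fabp1 was the one member whose AM groups did not overlap. Hyperoxic AM libraries were at 4.08, 6.27, 5.86, 5.33 and 8.20 CPM, against 10.96, 18.7 and 25.4 CPM as the lowest, median and highest in normoxia. Every hyperoxic library was below every normoxic one, as for 0.361% of all genes in AM, and each of the 3 litters was lower (16.0% of all genes). The log2 fold change was −1.52 ± 0.40 (adjusted p = 0.202), from −1.84 to −1.09 over the alternatives. These levels rest on 30 counts over the 5 hyperoxic libraries and 132 over the 6 normoxic ones. DESeq2 did not call it.

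The sequence around the single motif match among the promoters of these genes is shown here because it is at Fabp1, a choice made after the values were seen. Promoter windows, from 250 bases before to 50 after the RefSeq transcript start (GRCm38.p6), were at hand for 7 of the 10 genes. They were searched on both strands for DR1 and DR4, a pair of AGGTCA repeats separated by 1 or 4 bases, sites of nuclear receptors that heterodimerise with RXR, and for TGACNNNGC, the core of the antioxidant response element. The match, shown in capitals, starts at position 242 of the Fabp1 window, 9 bases before the annotated start. The 30 bases printed around it lie on the plus strand at chr6:71199860-71199889. Of all 32851 promoter windows, 12.4% hold that 9-letter core, 0.0396% hold the DR1 letters and 0.0152% the DR4 letters, so a match to the core is common.
Fabp1: caacagtgggTGACCTGGCaggcagagctg

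Of the hydrolases, Lipa had the larger fitted value in AM. In AM, Lipa was at 1170, 1082, 588, 549 and 846 CPM in hyperoxia, against 409, 573 and 773 CPM as the lowest, median and highest in normoxia, and 3 of 5 lay above the normoxic range. Its log2 fold change was 0.39 ± 0.14 (adjusted p = 0.317), and litters 93, 100 and 108 differed by 0.61, 0.33 and 0.25. Ly6Clo gave 0.35 ± 0.16 (adjusted p = 0.860) and Ly6Chi −0.35 ± 0.26. Nceh1 was at 649 to 897 CPM in hyperoxic AM and 517 to 704 CPM in normoxic AM, a difference of 0.24 ± 0.12 (adjusted p = 0.500), with 4 of 5 hyperoxic libraries above the normoxic range. Its values in DC (0.24), Ly6Clo (0.12) and Ly6Chi (−0.18) were within 2 SE of 0. In Ly6Chi 4 of 5 hyperoxic libraries lay below the normoxic range for Nceh1, at 87.0 to 150 CPM in hyperoxia and 109 to 154 CPM in normoxia.

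Plin2 was at 1104 to 1989 CPM in hyperoxic AM and 972 to 1533 CPM in normoxic AM, with 4 of 5 hyperoxic libraries above the normoxic range. The fitted log2 fold change was 0.35 ± 0.14 (adjusted p = 0.402). Without the libraries under 1000000 counts, where litter 108 alone held both conditions, it was −0.053. In DC it was 0.26 ± 0.13 (adjusted p = 0.566), and in Ly6Chi and Ly6Clo 0.04 ± 0.09 and 0.09 ± 0.15.

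Cidec went the other way in AM. Hyperoxic libraries were at 54.4, 51.4, 21.5, 45.3 and 32.8 CPM, against 52.6, 61.1 and 118 CPM as the lowest, median and highest in normoxia. Of the 5, 4 lay below the normoxic range and the other was just inside it. The log2 fold change was −0.87 ± 0.22 (adjusted p = 0.179), from −1.01 to −0.64 over the alternatives, and all 3 litters were lower, by −0.78, −1.34 and −0.63 in litters 93, 100 and 108. DESeq2 called Cidec (adjusted p = 0.0471), and so did the fit without a filter on low counts (0.0417), over a range of 0.0417 to 0.923. The value in Ly6Clo was −0.57 ± 0.35 (adjusted p = 0.860). Summed epithelial markers in AM were 263 to 2472 CPM in hyperoxia and 492.6 to 3105 CPM in normoxia, and their part in the levels of Fabp1 and Cidec was not tested.

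**Figure D4:**
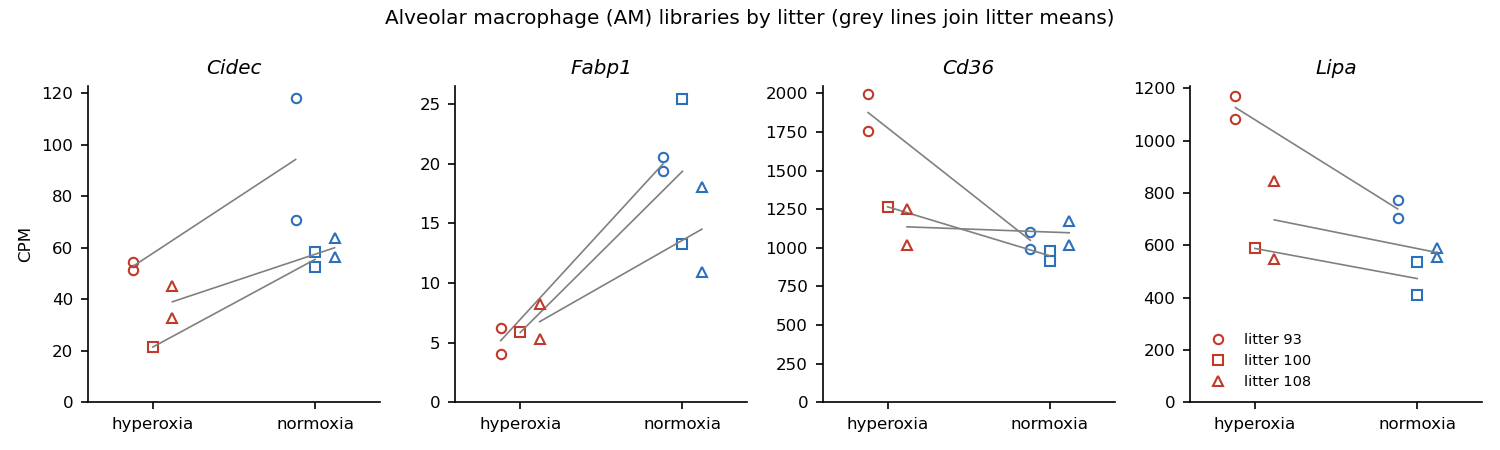
Level (CPM) of Cidec, Fabp1, Cd36 and Lipa in every AM library by litter, with hyperoxia left of normoxia; symbols mark the litters and grey lines join litter means. For Fabp1 the groups do not overlap, while for Cd36 the hyperoxic libraries of litter 93 are the highest.

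Cidec had the smallest p of the 10 in AM, and the 250 bases before each of its 2 RefSeq starts are shown for that reason, both on the minus strand and written 5′ to 3′. Neither window holds any of the 3 motifs. The first lies at chr6:113435761-113436010 and the second at chr6:113434765-113435014 (GRCm38.p6).
Cidec start 1: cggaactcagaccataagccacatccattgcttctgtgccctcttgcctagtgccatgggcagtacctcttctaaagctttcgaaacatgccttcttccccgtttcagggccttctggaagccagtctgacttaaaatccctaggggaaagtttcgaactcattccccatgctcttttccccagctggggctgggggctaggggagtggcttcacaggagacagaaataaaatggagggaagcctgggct
Cidec start 2: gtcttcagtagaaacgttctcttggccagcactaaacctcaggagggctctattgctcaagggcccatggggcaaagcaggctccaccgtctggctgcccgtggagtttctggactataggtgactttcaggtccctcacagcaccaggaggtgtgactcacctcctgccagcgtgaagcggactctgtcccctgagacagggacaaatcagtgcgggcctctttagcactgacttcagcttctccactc

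Neither exporter was near the threshold. Abca1 was at 17.6 to 37.2 CPM in hyperoxic AM and 18.0 to 50.9 CPM in normoxic AM (0.02 ± 0.32, adjusted p = 0.988), and its fitted values in DC, Ly6Clo and Ly6Chi were 0.35 ± 0.27, 0.16 ± 0.19 and −0.13 ± 0.32. Its litter differences in AM ran from −1.02 in litter 100 to 0.65 in litter 108. Abcg1 was at 387 to 688 CPM in hyperoxic AM and 336 to 639 CPM in normoxic AM (0.23 ± 0.13, adjusted p = 0.586). The fitted value of Abcg1 was above 0 in all 4 populations, as for 14.3% of the 9249 genes tested in all 4. It was 0.25, 0.39 and 0.20 in DC, Ly6Chi and Ly6Clo, and the adjusted p over the 4 populations ran from 0.586 to 0.860.

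Other genes of the pathway were taken from 5 lists holding 75 genes in all. These lists too were chosen with earlier results of these data known, so their counts are not a test of a list. Capture and transport held 21, storage and droplet turnover 18, lysosomal handling and export 16, nuclear receptors 9 and fatty acid oxidation 11. In hyperoxia against normoxia edgeR called none of them in any population, DESeq2 called Marco and the monoglyceride lipase Mgll in AM, and the tested genes had their median within 0.22 log2 of 0 in every list and population. In AM 6 of 18 tested capture and transport genes were at an unadjusted p under 0.05, where 9.91% of all genes were, among them the scavenger receptor Marco (416 ± 90.5 CPM in hyperoxia against 262 ± 42.0 CPM in normoxia, 0.65 ± 0.15, adjusted p = 0.160). The acyl-CoA synthetases Acsl4 (0.77 ± 0.21, adjusted p = 0.211) and Acsl1 (0.83 ± 0.24, adjusted p = 0.228) were also among them. The other lists in AM had 1 of 12 storage genes, 3 of 15 lysosomal and export genes, 0 of 6 receptors and 0 of 9 oxidation genes there. In DC 7 of 16 lysosomal and export genes were at an unadjusted p under 0.05, where 8.85% of all genes were. The cholesterol transporter of the late endosome, Npc1, was at 129 CPM in hyperoxic DC against 93.1 CPM in normoxic DC (0.49 ± 0.14, adjusted p = 0.435), and at 284 CPM against 199 CPM in AM (0.48 ± 0.17, adjusted p = 0.317). Pparg, a nuclear receptor that drives lipid genes, was at 78.2 CPM in hyperoxic DC against 47.6 CPM in normoxic DC (0.62 ± 0.21, adjusted p = 0.469). The other lists in DC had 3 of 19 capture genes, 1 of 12 storage genes, 1 of 6 receptors and 2 of 10 oxidation genes there. In Ly6Chi and Ly6Clo each list had 0 or 1, where 5.45% and 5.3% of all genes were at that level.

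Between populations in normoxia, in AM against DC, the capture and transport list had 11 genes called higher in AM and 3 lower of 18 tested, where 22.4% of all genes were called higher and 27.5% lower. Storage had 7 higher and 1 lower of 14, lysosomal handling and export 6 higher and 5 lower of 16, nuclear receptors 3 higher and 1 lower of 7, and fatty acid oxidation 6 higher and 3 lower of 10. Pparg was at 305 CPM in normoxic AM, against 47.6 CPM in DC (2.66 ± 0.22, adjusted p = 2.28e-10). In AM against Ly6Clo edgeR called no storage gene, where 21.5% of all genes were called, and DESeq2 called 1. At an unadjusted p under 0.05 there were 3 of 14 storage genes, where 34.9% of all genes were. Slc27a4, a fatty acid transport protein, was called higher in AM (1.41 ± 0.33, adjusted p = 0.00270), as were 7.28% of all genes.

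By group means over the 8 groups, the genes most like Lpl in pattern were Hilpda (Pearson r of mean log2 CPM 0.998), Ralgds and Mertk, of 12528 genes searched. For Abcg1 they were Pla2g6, Fabp5 and Tcf7l2. The 8 means share libraries and scaling across genes, so this describes a pattern only. Among the 45 pairs of the 10 genes, Nceh1 and Abcg1 were most alike (r = 0.99) and Fabp1 and Abca1 least (r = −0.03).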

How the data were processed

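The members and the gene lists were chosen with earlier results of these data known. The authors deposited whole-number counts per Ensembl gene, with no normalization. The tools named in the submitters' processing notes are FastQC, SAMtools, Picard, TopHat and HTSeq 0.4.1, and the build named there is NCBIM37. Settings and strand use are not given in the sources used here. Per the labels' protocols, cells were sorted into SMART-Seq v4 lysis buffer and libraries made with Nextera XT. No molecular identifiers are mentioned, so floors cover counting error only. Symbols and transcript lengths came from GENCODE M21 (GRCm38).

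Counts were fitted in R 4.3.3 with edgeR 4.0.16 (filterByExpr, minimum count 10 and total 15, TMM scaling, robust quasi-likelihood F test, litter as an additive block, prior count 0.125). Alternatives were DESeq2 1.42.0, RLE scaling, no filter, no litter term, corrections for limited counts, 1 fit of all libraries, and leaving out small libraries, litters or single libraries. Genes were called at a Benjamini-Hochberg adjusted p under 0.05. CPM are TMM-scaled over all 43 libraries. Litter comes from the labels: deviations of litter means correlated between hyperoxia and normoxia at 0.10 to 0.32 in all 12 population-litter pairs. The code was tested on simulated data. Figures were drawn with matplotlib 3.10.9. All 10 members are named. Of other pathway genes at most 3 per list and comparison are named, those with the smallest unadjusted p, and of like genes the 3 with the highest r.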

Additional observations from a re-analysis of the deposited data

Results flagged for a closer look

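Of 80 gene and group combinations, 9 had a library standing apart from the rest of its group by Dixon's test at its 95% level. Chance gives about 1 in 20 where values vary, but the 9 include groups whose other libraries were all at 0. There any count is flagged, so the 9 cannot be set against that rate. Cd36 was at 497 CPM in Ly6Clo hyperoxia replicate 3, against 987 to 1101 CPM in the other libraries of the group. Lipa was at 115 CPM in Ly6Chi normoxia replicate 3, against 270 to 334 CPM in the others. Nceh1 was at 154 CPM in Ly6Chi normoxia replicate 4, against 109 to 119 CPM. Plin2 was at 494 CPM in DC normoxia replicate 3, against 644 to 659 CPM. These 4 libraries are of litter 100. Those that are replicate 3 had the lowest total counts of their groups. In the 8 groups replicate 3 held 207 to 733 CPM of 6 erythroid markers. The normoxic replicate 4 libraries, also of litter 100, held 8.12 to 15.3 CPM of them. The part of depth or erythroid RNA in these values was not tested. Cidec was at 118 CPM in AM normoxia replicate 1, against 52.6 to 70.6 CPM.

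In groups where the other libraries were at 0, a single library held counts. Fabp1 was at 0.499 CPM in Ly6Clo hyperoxia replicate 4 and at 0.541 CPM in Ly6Chi hyperoxia replicate 1, from 1 count each. Cidec was at 8.35 CPM in DC hyperoxia replicate 4, from 21 counts, and at 2.71 CPM in Ly6Chi hyperoxia replicate 1, from 5 counts.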

How the results depend on the processing

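Of 1871 values of single genes under an alternative, 1796 kept their direction and their side of the threshold. Counts of called genes changed in few settings. DESeq2 called 2 genes in AM and 1 in DC in the hyperoxia comparisons, and the fit without a filter on low counts gave the same 2 and 1, while it called 325 genes in all in AM and 369 in DC, against 11 and 0. Leaving out 1 library at a time gave 0 to 1 in DC. For the test of a difference between populations, dropping the filter called 2 (Cd36 and Fabp4), among 524 of all 23846 genes. In AM against Ly6Clo dropping the filter called 7 (Lpl, Cd36, Fabp4, Fabp1, Cidec, Abca1 and Abcg1), among 2910 of all 22774 genes. With the replicate block dropped, 0 members were called in each hyperoxia comparison, and the count was 3 in place of 4 in DC against Ly6Chi. In the same fit Abca1 in AM had a log2 fold change of −0.0024.

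Other signs turned in the hyperoxia comparisons, mostly for values near 0. Plin2 in AM, at 0.35 ± 0.14 with all libraries, and Fabp4 in DC, at −0.57, turned as well. In AM, Fabp4 was −0.74 and Plin2 −0.053 without libraries under 1000000 counts, a setting in which litter 108 alone held both conditions. There Fabp4 was also −0.089 without litter 100 and −0.21 without litter 93, and Abca1 was −0.37 without litter 108. In DC, Fabp4 was 0.021 without litter 100 and Cd36 −0.11 without litter 108. In Ly6Chi, Plin2 was −0.0082 with counts corrected per transcript base and Abca1 was 0.027 without litter 93. In Ly6Clo, Fabp4 was 0.35 without litter 108, and without litter 93 Cd36 was −0.071, Nceh1 −0.069 and Plin2 −0.033. In normoxia, Plin2 in AM against Ly6Clo was 0.020 with RLE scaling, 0.020 in DESeq2, 0.012 without the replicate block and 0.014 without small libraries, and Cidec in DC against Ly6Chi was 0.15 in DESeq2. Leaving out litters and the per-transcript correction were chosen after seeing the data, and the cause of these changes was not tested.

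Leaving out 1 library at a time, values that turned ranged as follows. In AM hyperoxia, Abca1 was −0.18 to 0.30 and Fabp4 −0.084 to 0.35. In DC, Fabp4 was −0.79 to 0.016 and Cd36 −0.12 to 0.18. In Ly6Chi, Plin2 was −0.0011 to 0.086 and Abca1 −0.27 to 0.023. In Ly6Clo, Fabp4 was −0.43 to 0.35. In AM against Ly6Clo, Plin2 was −0.057 to 0.037, and in DC against Ly6Chi Fabp1 was −0.36 to 1.22, Cidec −1.26 to 1.71 and Fabp4 −0.37 to 0.49. Low counts limit Fabp1 outside AM and Cidec in DC and Ly6Chi, although DC and Ly6Chi had the higher median totals.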
